A study of Mus musculus with 72 samples.

Results

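PPARG is a nuclear receptor of fat storage, and Mogat1, Cd36 and Fabp4 are 3 of its known target genes in fatty liver. These 4 genes were read from the count table by matching their symbols to Ensembl gene identifiers, and they are 4 of the 50307 genes in the table and 4 of the 14954 genes with enough counts to be tested. Liver RNA came from females and males of C57BL/6J (B6, spelled C56BL/6J in the strain field) and of DBA/2J (DBA). All mice ate a Western diet with control, low or high isoleucine for 12 weeks and were fasted for 16 h, so that no group was on another diet or was fed. The 72 libraries form 12 groups of 6, 1 for each diet in B6 females, B6 males, DBA females and DBA males, which are called the 4 classes here. The labels give the age as 18 weeks, while one text starts the diets at 6 weeks of age and another at 18 weeks. Each number in the library titles occurs on 2 libraries of a group, and the labels do not say whether those come from separate animals, so p-values measure the spread between libraries, which may be partly technical.

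PPARG binds fatty acids and related lipids and acts on DNA as a pair with a retinoid X receptor, typically at repeats of the letters AGGTCA. It is best known as the master regulator of fat cells, where it turns on genes for taking up, binding and storing fatty acids. In the normal liver it is scarce, and in fatty livers of mice its mRNA and that of several of its targets are known to be raised. MOGAT1 is an enzyme that adds a fatty acid to monoacylglycerol, a step towards triglyceride. CD36 is a membrane protein that carries fatty acids into cells, and FABP4 is a cytosolic fatty acid carrier of fat cells that macrophages and capillary endothelium also make.

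The bases before the starts of the genes were searched for AGGTCA and its repeat, because PPARG pairs typically bind at such repeats. Whether PPARG bound there in these livers was not tested. Of the 4 genes 3 matched an entry in the RefSeq promoter table (GRCm38.p6), all but Fabp4. The 250 bases before each start listed there were searched on both strands. The listed Cd36 start lies inside the gene span of chr5:17781690-17888801 on the minus strand. Cd36 starts not listed there were not searched. The direct repeat is AGGTCA followed by any 1 base and AGGTCA again. It was not found letter for letter before any listed start of the 3 genes, and 0.0335% of all 32851 promoters of that length held it. The closest match had 2 mismatches in the fixed letters in both Mogat1 and Cd36, and 3.24% of all promoters held a match at least as close. The closest matches at the 3 annotated starts of Pparg had 4 mismatches, a level that 74.5% of all promoters reached. The single unit AGGTCA stood before 2 of the 3 Pparg starts, 28 and 9 bases upstream, and once in Cd36, 228 bases upstream, against 14% of all promoters. A match is a string of letters and not a measured binding site. The closest match to the repeat is in capitals for Mogat1, where it begins 51 bases before the start, and for Cd36, where it lies on the opposite strand from 63 bases before the start, and the single unit is in capitals for Pparg. The listed Cd36 promoter is shown whole. For Mogat1 and Pparg only the 30 bases around the match are shown, because exons of the same gene in GENCODE M21 overlap the 250 bases. They cover 69 bases for Mogat1, and 193 and 57 for the first and second Pparg starts. The windows shown for Mogat1 and Pparg lie inside the gene spans given in the next paragraph.
Mogat1 (chr1:78511000-78511029, plus strand): ccagaattcAGGTAAAAAGTCAggctggtg
Cd36 (chr5:17835897-17836146, minus strand): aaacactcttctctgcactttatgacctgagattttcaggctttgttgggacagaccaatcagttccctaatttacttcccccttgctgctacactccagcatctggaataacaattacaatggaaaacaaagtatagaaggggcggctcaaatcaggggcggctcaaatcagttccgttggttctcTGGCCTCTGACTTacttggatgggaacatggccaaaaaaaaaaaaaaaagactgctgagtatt
Pparg, first start (chr6:115361104-115361133, plus strand): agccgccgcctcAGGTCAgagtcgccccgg
Pparg, second start (chr6:115362319-115362348, plus strand): ttttatataagggacgcgaggAGGTCAaga

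In the GRCm38 annotation Pparg (ENSMUSG00000000440) spans chr6:115360951-115490399 on the plus strand and Mogat1 (ENSMUSG00000012187) chr1:78510991-78538173 on the plus strand. Cd36 (ENSMUSG00000002944) spans chr5:17781690-17888801 and Fabp4 (ENSMUSG00000062515) chr3:10204088-10208576, both on the minus strand. All 4 are protein-coding, and the counts are sums over each gene, so transcripts from the different Pparg starts cannot be told apart. On the opposite strand, Gm44079 inside Pparg was at 0 in all libraries. BC035947, which overlaps the start of Mogat1 on the other strand, had a median of 0.105 and a maximum of 0.824 CPM, which are counts per 1000000 counts of the scaled library size. The kit marks strand, but the sources used here do not say whether the counting used it.

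Library totals ran from 12960000 to 51130000 counts with a median of 24120000. The hepatocyte gene Alb stood at 41930 CPM or more in every library. Xist and Ddx3y matched the labelled sex in all 72 libraries, with at most 0.568 CPM of Ddx3y in a female library. Of the fat cell markers, Adipoq reached at most 2.03 CPM and was at 0 in 23 libraries, Plin1 reached at most 0.717 CPM and was at 0 in 43, and Lep was at 0 in 69. Other markers of the same list stood higher. Adrb3 ran from 2.20 to 89.6 CPM with a median of 14.2, Cfd reached 193 CPM and Cidea 70.2 CPM.

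Per kilobase of the longest coding transcript, Cd36 had the highest mean of the 4 in 11 of the 12 groups, with group means from 10.2 to 79.9 CPM per kilobase. In DBA males on low isoleucine Fabp4 stood at 11.5 and Cd36 at 10.2 CPM per kilobase. Fabp4 lay between 6.59 and 11.9 CPM per kilobase, Pparg between 2.10 and 9.10, and Mogat1 between 0.196 and 4.14. The spread of the group means differed widely between the genes. From the lowest to the highest of the 12 groups, mean CPM differed 21.1-fold for Mogat1, 7.80-fold for Cd36, 4.33-fold for Pparg and 1.81-fold for Fabp4. Pparg was highest in B6 males on high isoleucine (19.3 ± 7.65 CPM, SD, n = 6), then in B6 females on high isoleucine (13.9 ± 3.96) and DBA males on control (12.9 ± 2.12). It was lowest in DBA females (6.85 ± 0.949) and DBA males (4.46 ± 0.624) on low isoleucine. In the order of means only this last pair of neighbouring groups had ranges that did not overlap. Mogat1 ran from 5.08 ± 4.56 CPM in B6 males on high isoleucine to 0.241 ± 0.110 CPM in DBA females on low isoleucine. All 3 groups of DBA females and DBA males on low isoleucine lay below 0.5 CPM on average. Cd36 was highest in the 3 groups of B6 females, from 271.5 ± 75.9 CPM on high isoleucine to 199 ± 37.1 on low isoleucine, and lowest in DBA males on low isoleucine (34.8 ± 17.4). Fabp4 ran from 10.7 ± 3.15 CPM in B6 males on high isoleucine to 5.90 ± 1.16 in DBA females on high isoleucine. For Mogat1, Cd36 and Fabp4 every pair of neighbours in the order overlapped.

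**Figure D1:**
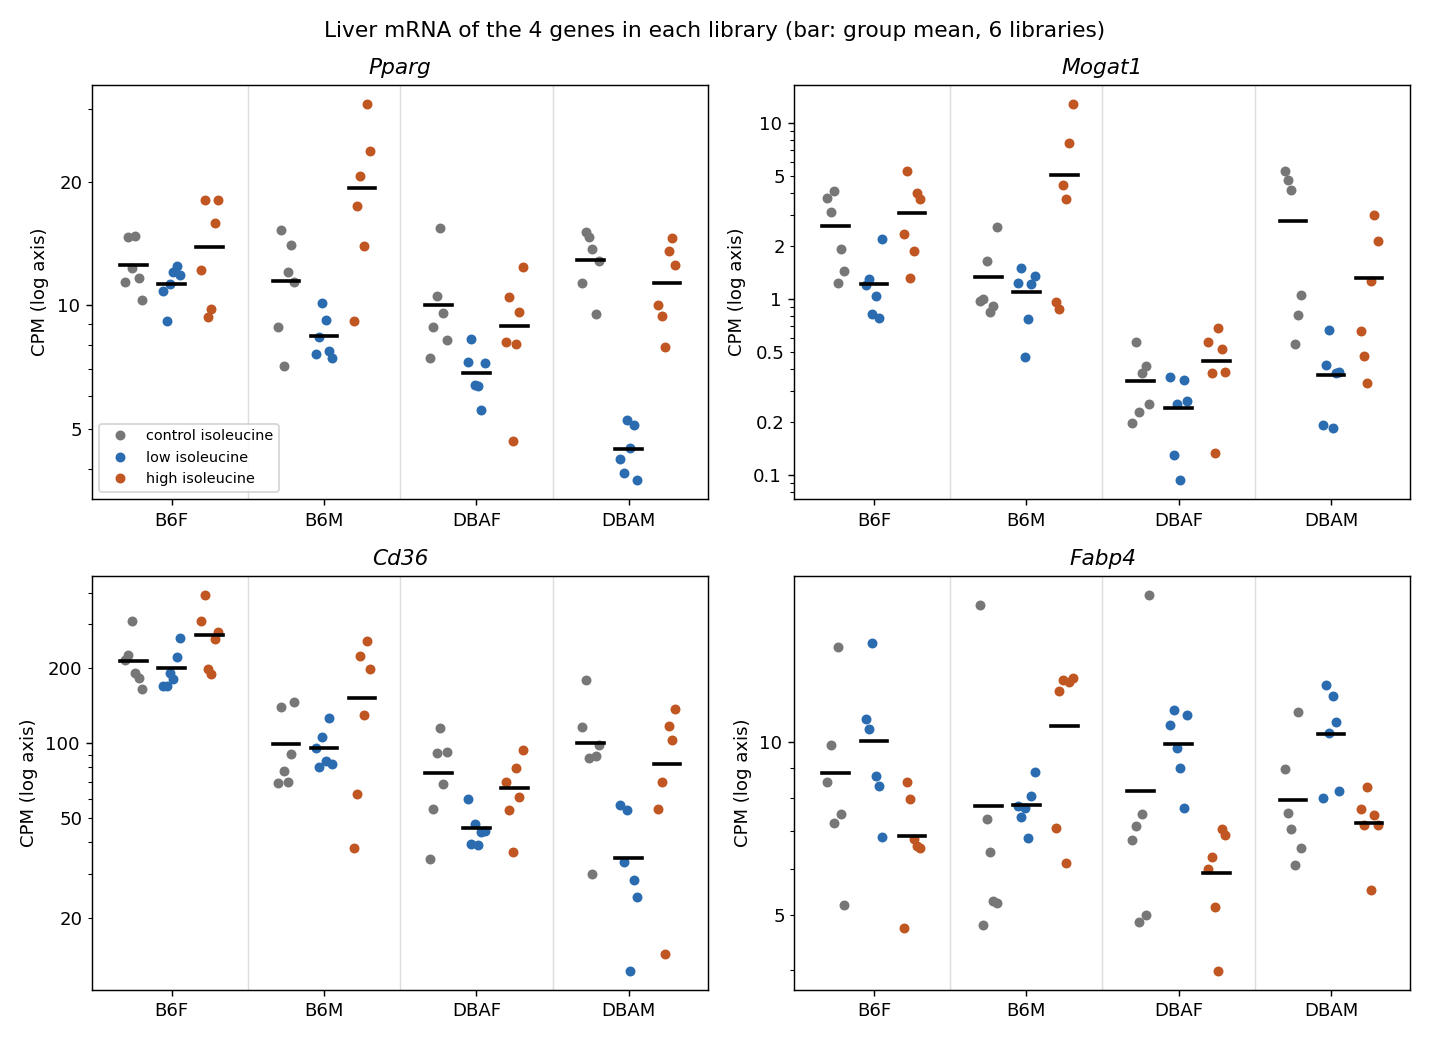
Level of the 4 genes in each of the 72 libraries, in CPM on log axes, by class (B6F, B6 females; B6M, B6 males; DBAF, DBA females; DBAM, DBA males) and diet; each point is a library and each black bar the mean of 6 libraries. DBA males on low isoleucine lie lowest in Pparg (mean 4.46 CPM), DBA females and DBA males on low isoleucine lowest in Mogat1, B6 females highest in Cd36, and single control libraries stand at 17.4 and 18.1 CPM in Fabp4.

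The first comparison set low isoleucine against control, averaging the effects in the 4 classes. Pparg, Mogat1 and Cd36 were lower on low isoleucine and Fabp4 was not. In log2 fold change, with its standard error and edgeR's Benjamini-Hochberg adjusted p, Pparg fell by 0.67 ± 0.10 (adjusted p = 9.5e-08) and Mogat1 fell by 1.17 ± 0.28 (adjusted p = 0.00054). Cd36 fell by 0.60 ± 0.18 (adjusted p = 0.0053), and Fabp4 was at 0.21 ± 0.12 (adjusted p = 0.17, 95% interval -0.03 to 0.44). Thus 3 of the 4 genes passed the threshold of 0.05 in this comparison, in which 37.8% of all genes tested passed (17.8% higher and 20% lower). Because a liver sample holds several cell types, fewer cells of a type and less RNA per cell cannot be told apart in these values.

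Among the single classes Pparg passed in DBA males alone. There the lowest, median and highest libraries stood at 3.75, 4.35 and 5.27 CPM on low isoleucine and at 9.55, 13.3 and 15.1 CPM on control. The groups did not overlap, as was the case for 7.33% of all genes in that class, and the log2 fold change was -1.53 ± 0.20 (adjusted p = 6.5e-08), which is a level 2.89-fold lower. In that class 17.7% of all genes tested passed. In DBA females Pparg ran from 5.57 over 6.81 to 8.28 CPM on low isoleucine and from 7.44 over 9.21 to 15.5 CPM on control. All 6 low isoleucine libraries lay under the control mean, the ranges overlapped, and the log2 fold change of -0.55 ± 0.20 missed the threshold (adjusted p = 0.054). DESeq2 gave -0.54 with an adjusted p of 0.046. In B6 males it ran from 7.44 over 8.05 to 10.1 CPM on low isoleucine against 7.11, 11.7 and 15.2 CPM on control (-0.46 ± 0.19, adjusted p = 0.17). In B6 females it ran from 9.14 over 11.6 to 12.47 CPM against 10.3, 12.0 and 14.7 CPM (-0.15 ± 0.19, adjusted p = 0.62). The 2 ranges overlapped in both B6 classes, although all 6 low isoleucine libraries lay under the control mean in each. Of all genes 11.8% passed in DBA females, 5% in B6 males and 20.8% in B6 females.

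Mogat1 also passed in DBA males alone. Its low isoleucine libraries ran from 0.185 over 0.382 to 0.666 CPM and its control libraries from 0.555 over 2.60 to 5.30 CPM. The control group itself was split, with 3 libraries between 4.16 and 5.30 CPM and 3 between 0.555 and 1.05 CPM, and only the lowest of these reached into the range of the low isoleucine group. The log2 fold change was -2.91 ± 0.54 (adjusted p = 5.8e-05). Without the 2 control libraries that share title number 10, which were the highest, it was -2.11 (adjusted p = 0.0082). In B6 females Mogat1 ran from 0.777 over 1.11 to 2.18 CPM on low isoleucine and from 1.24 over 2.52 to 4.08 CPM on control (-1.07 ± 0.47, adjusted p = 0.099). The 6 low isoleucine libraries of that class lay under the control mean, and a fit of its 18 libraries alone gave an adjusted p of 0.040. In B6 males the change was -0.21 ± 0.49 (adjusted p = 0.88), with 0.469 to 1.5 CPM on low isoleucine and 0.848 to 2.57 CPM on control. In DBA females it was -0.49 ± 0.68 (adjusted p = 0.71), from levels of 0.0934 to 0.362 CPM against 0.197 to 0.567 CPM. These DBA female values rest on few reads, with as few as 2 counts in a library.

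Cd36 passed in DBA males alone among the 4 classes. In DBA males it ran from 12.3 over 30.9 to 56.6 CPM on low isoleucine and from 29.8 over 93.3 to 179 CPM on control. Apart from the control library at 29.8 CPM, which was also the lowest in Mogat1, all control libraries lay above the low isoleucine range. The log2 fold change was -1.52 ± 0.36 (adjusted p = 0.0016), and -1.11 (adjusted p = 0.043) without the 2 control libraries of title number 10. In DBA females it ran from 39.1 over 44.4 to 59.7 CPM against 34.3, 79.9 and 115 CPM on control (-0.73 ± 0.35, adjusted p = 0.18). In B6 females Cd36 was at 169 to 264 CPM on low isoleucine and at 164 to 307 CPM on control (-0.10 ± 0.35, adjusted p = 0.88). In B6 males it was at 80.1 to 127 CPM and 68.9 to 147 CPM (-0.05 ± 0.35, adjusted p = 0.97). In both B6 classes the ranges overlapped over most of their length.

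Fabp4 did not pass in any class. On low isoleucine it ran from 6.84 over 9.63 to 14.9 CPM in B6 females, 6.79 over 7.70 to 8.87 in B6 males, 7.69 over 10.2 to 11.4 in DBA females and 7.98 over 10.6 to 12.6 in DBA males. On control it ran from 5.21 over 8.01 to 14.6 CPM in B6 females, 4.80 over 5.86 to 17.4 in B6 males, 4.86 over 6.95 to 18.1 in DBA females and 6.10 over 7.29 to 11.3 in DBA males. The low isoleucine medians were above the control medians in all 4 classes, and the ranges overlapped in all 4. The log2 fold changes were 0.19, 0.00, 0.27 and 0.38 in the same order, with adjusted p-values of 0.63, 0.999, 0.51 and 0.30. The highest control values came from single libraries, B6 male control library 1 at 17.4 CPM and DBA female control library 6 at 18.1 CPM. Without the first the mean effect was 0.32 (adjusted p = 0.015), without the second 0.31 (adjusted p = 0.02), and without both 0.42 (adjusted p = 0.00029). DBA female control library 6 also had the highest Adipoq (2.03 CPM) and Plin1 (0.717 CPM) of all 72 libraries and 1.90 CPM of Cfd. In B6 male control library 1 Adipoq was at 0.0879 CPM and Plin1 and Cfd at 0, while Cidec, a lipid droplet protein, was at 91.2 CPM, the highest of its group. The part of these markers in the Fabp4 values was not tested.

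**Figure D2:**
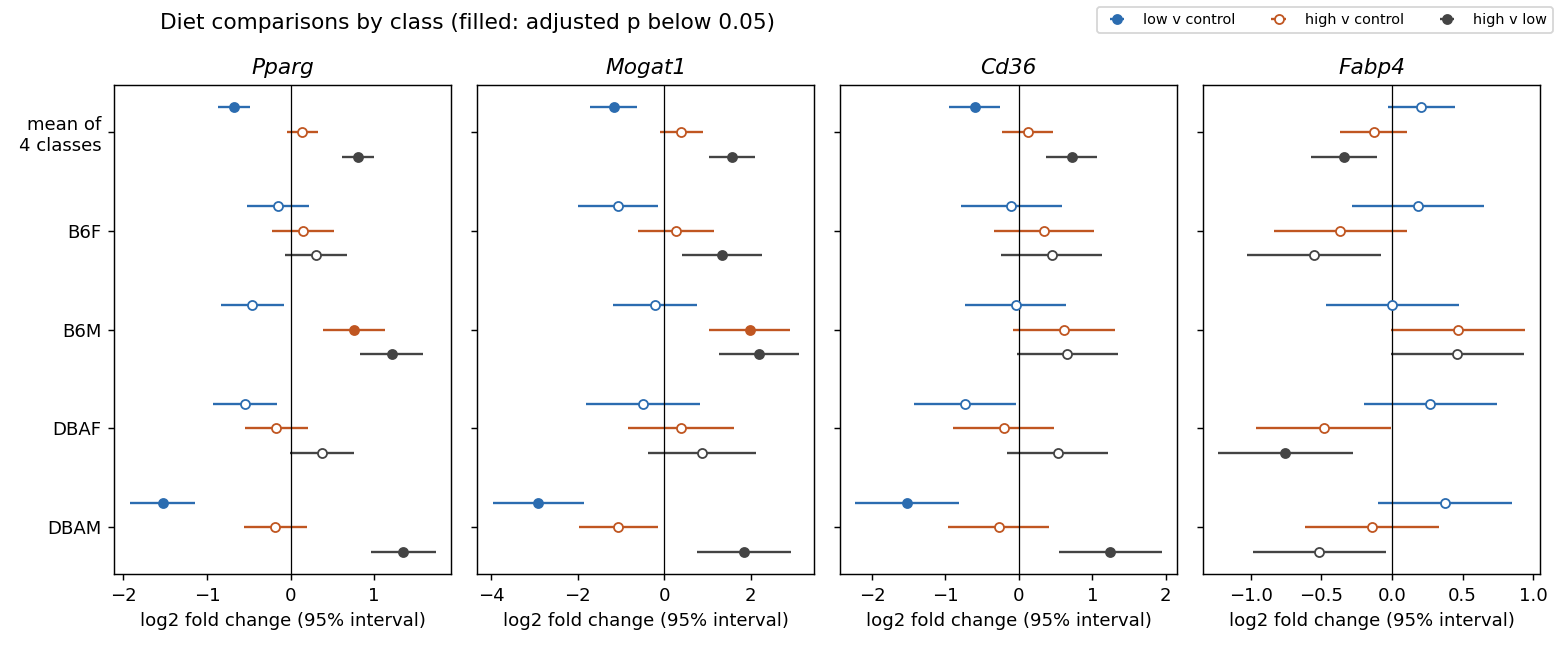
Log2 fold changes of the 4 genes, with 95% intervals, for low against control (blue), high against control (orange) and high against low isoleucine (grey), as the mean of 4 classes and in each class; filled points passed the threshold of 0.05 on the adjusted p and open points did not. The falls of Pparg, Mogat1 and Cd36 on low isoleucine were widest in DBA males (-1.53, -2.91 and -1.52), and the rises of Pparg and Mogat1 on high isoleucine passed in B6 males only (0.76 and 1.98).

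The differences between these class effects were tested as interaction terms. For Pparg the log2 fold change on low isoleucine in DBA minus that in B6 was -0.73 ± 0.19 (adjusted p = 0.034), a comparison in which 1.39% of all genes passed. Males minus females gave -0.64 ± 0.19 (adjusted p = 0.031), where 6.68% of all genes passed. Both calls were lost without a filter on low counts (adjusted p = 0.072 and 0.078) and in limma-voom with the title number as a random effect (0.21 and 0.12), and the first also in limma-voom without it (0.058) and without the 2 DBA male control libraries of title number 10 (0.057). For Cd36 the strain term was larger, at -1.05 ± 0.35, and did not pass (adjusted p = 0.11, 95% interval -1.74 to -0.36). For Mogat1 it was -1.06 ± 0.55 (adjusted p = 0.37) and for Fabp4 0.23 ± 0.24 (adjusted p = 0.73). The sex terms of Mogat1 (-0.78 ± 0.56), Cd36 (-0.36 ± 0.35) and Fabp4 (-0.04 ± 0.24) did not pass either, with adjusted p-values of 0.44, 0.60 and 0.96.

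High isoleucine was compared with the same control libraries, so its values and those above share them. As the mean of 4 classes none of the 4 genes passed: Pparg was at 0.14 ± 0.10 (95% interval -0.05 to 0.33), Mogat1 at 0.39 ± 0.25 (-0.11 to 0.89), Cd36 at 0.12 ± 0.18 (-0.22 to 0.46) and Fabp4 at -0.13 ± 0.12 (-0.37 to 0.11). The adjusted p was 1 for each in edgeR's test, in which 0% of all genes passed, 684 genes had an unadjusted p under 0.05 and DESeq2 called 5 genes. In B6 males 4.51% of all genes passed. There Pparg ran from 9.15 over 19.1 to 30.96 CPM on high isoleucine, with 5 of 6 libraries above the control mean of 11.4 CPM, and rose by 0.76 ± 0.19 (adjusted p = 0.014). Mogat1 ran from 0.876 over 4.06 to 12.9 CPM against 0.848, 0.984 and 2.57 CPM on control and rose by 1.98 ± 0.48 (adjusted p = 0.011). The Mogat1 group was split: the 2 libraries of title number 14 were at 0.964 and 0.876 CPM, inside the control range, and the other 4 at 3.70 to 12.9 CPM, all above it. The same 2 libraries were lowest in Cd36, at 38.1 and 62.8 CPM against 130 to 256 CPM in the others. Without them Pparg was at 0.96 (adjusted p = 0.00073) and Mogat1 at 2.46 (adjusted p = 0.00023). In a fit of the 18 B6 male libraries alone the adjusted p was 0.079 for Pparg and 0.065 for Mogat1, and with the title number as a random effect 0.086 and 0.087.

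Cd36 in B6 males ran from 38.1 over 164 to 256 CPM on high isoleucine and did not pass (0.61 ± 0.35, adjusted p = 0.30). Fabp4 there ran from 6.14 over 12.49 to 12.9 CPM, with 4 of 6 libraries above the control mean, and did not pass either (0.47 ± 0.24, adjusted p = 0.25). Without B6 male control library 1 it was at 0.89 (adjusted p = 0.019). In the other 3 classes none of the 4 genes passed: Pparg was between -0.18 and 0.15, Cd36 between -0.27 and 0.34 and Fabp4 between -0.48 and -0.14. For Mogat1 B6 females gave 0.27 ± 0.45, DBA females 0.39 ± 0.62 and DBA males -1.06 ± 0.47 (adjusted p = 0.91, 1 and 0.53). In those classes 0%, 0.00669% and 0.0134% of all genes passed. The strain terms for high isoleucine were -0.63 ± 0.19 for Pparg and -1.46 ± 0.51 for Mogat1 and missed the threshold (adjusted p = 0.10 and 0.18). Without the 2 libraries of title number 14 they were -0.73 (adjusted p = 0.015) and -1.70 (adjusted p = 0.031).

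Of the 10 fat cell markers 4 could be tested, and 2 of them, Cfd and Cidea, rose in the same B6 male group. Cfd, which encodes the secreted protease adipsin, ran from 8.67 to 193 CPM on high isoleucine against 0 to 9.71 CPM on control, and Cidea, a lipid droplet protein of brown fat, ran from 0.757 over 52.4 to 70.2 CPM against 0.176 to 4.96 CPM. Their log2 fold changes of 5.20 and 3.97 passed (adjusted p = 1.8e-05 for each). The other 2 fat cell markers tested did not pass, with Adrb3 at 0.20 ± 0.31 (adjusted p = 0.75) and Trarg1 at 0.91 ± 0.34 (adjusted p = 0.104). The lowest library of the high isoleucine group was the same in both genes, library 1, and it was also the lowest in Pparg and Cd36. Fitm1, a protein of the endoplasmic reticulum that partitions fat into droplets, rose from 19.4 ± 8.11 to 48.7 ± 19.3 CPM (1.33 ± 0.34, adjusted p = 0.018), and Plin4, a droplet coat protein, from 76.2 ± 46.6 to 207 ± 54.7 CPM (1.44 ± 0.35, adjusted p = 0.012). Cidec was at 0.85 ± 0.42 (adjusted p = 0.22). Adipoq was at 0.0834 CPM or less, Plin1 at 0.128 CPM or less and Lep at 0 in this group. Which cells made the Cfd and Cidea mRNA was not tested. The summed level of the 10 fat cell markers ran from 24.2 to 248 CPM there and from 5.01 to 21.6 CPM on control. In library 4, which had the highest sum, Cfd gave 193 and Cidea 49.5 of the 248 CPM. Of 11 hepatocyte markers tested 3 fell in this group, Alb (-0.44), Apob (-0.52) and Cps1 (-0.88), and the part of these shifts in the values of the 4 genes was not tested. In this comparison 4.51% of all genes passed, in either direction.

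**Figure D3:**
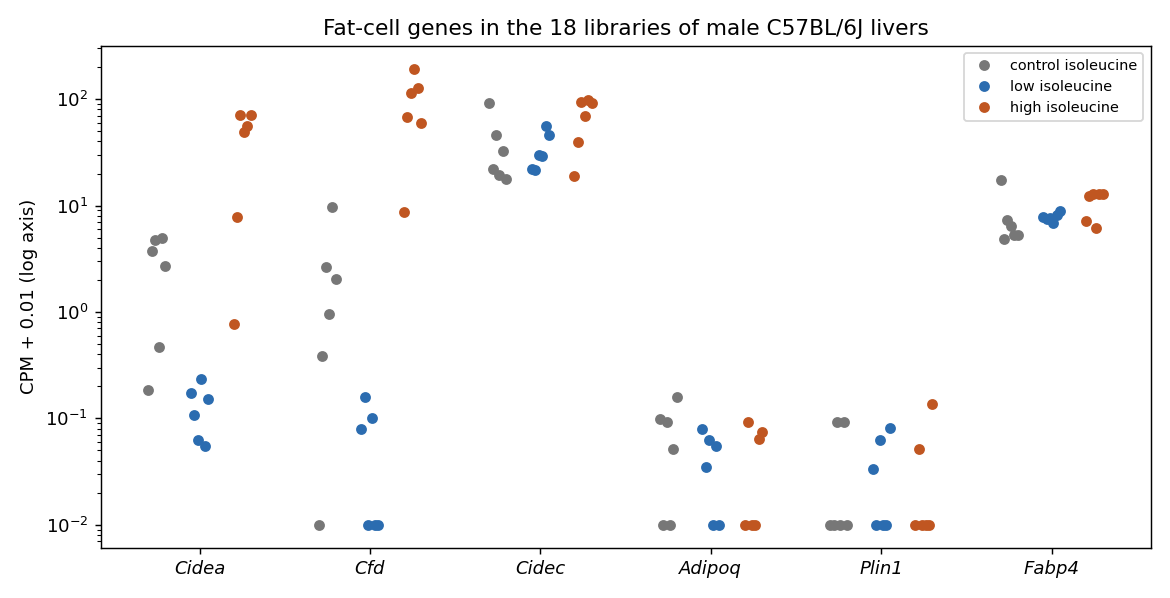
Level of 6 fat cell genes in the 18 libraries of B6 males, in CPM plus 0.01 on a log axis, by diet; each point is a library, and points at the bottom are libraries at 0. On high isoleucine Cfd reached 193 CPM and Cidea 70.2 CPM, while Adipoq and Plin1 stayed at or below 0.128 CPM in the same libraries.

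High and low isoleucine were also compared directly, a comparison that reuses libraries of both comparisons with control. As the mean of 4 classes all 4 genes passed, 3 higher and 1 lower on high isoleucine, where 43.6% of all genes passed (22.9% higher and 20.7% lower). Pparg was higher by 0.81 ± 0.10 in log2 fold change (adjusted p = 3.7e-10), Mogat1 by 1.56 ± 0.27 (adjusted p = 2.9e-06) and Cd36 by 0.72 ± 0.18 (adjusted p = 0.00068). Fabp4 fell by 0.34 ± 0.12 (adjusted p = 0.018). For Pparg the difference passed in the males of both strains. It was 1.21 ± 0.19 in B6 (adjusted p = 3.1e-06), where 25.9% of all genes passed. In DBA it was 1.35 ± 0.20 (adjusted p = 1.7e-06), where 14.3% of all genes passed. In DBA males the high isoleucine libraries, at 7.93, 11.3 and 14.6 CPM, did not overlap those on low isoleucine, which held for 4.93% of all genes. In females it was 0.30 ± 0.19 in B6 and 0.38 ± 0.20 in DBA (adjusted p = 0.27 and 0.19). The sex term of 0.94 ± 0.19 passed (adjusted p = 0.0012), among 7.43% of all genes, and it passed under every alternative run. The strain term of Pparg did not pass (0.10 ± 0.19, adjusted p = 0.79, 5.59% of all genes passed, 95% interval -0.27 to 0.48).

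Mogat1 was higher on high than on low isoleucine in B6 females (1.34 ± 0.47, adjusted p = 0.037), B6 males (2.19 ± 0.47, adjusted p = 0.00042) and DBA males (1.85 ± 0.55, adjusted p = 0.016). Of all genes 19.1%, 25.9% and 14.3% passed in those classes. In DBA males Mogat1 ran from 0.332 over 0.961 to 3.002 CPM on high isoleucine, so that the ranges still overlapped. In B6 females it ran from 1.32 over 3.02 to 5.31 CPM, with all 6 libraries above the low isoleucine mean of 1.22 CPM. The DBA male call was lost with limma-voom (1.55, adjusted p = 0.15) and in a fit of that class alone (adjusted p = 0.072), and the B6 female call without a filter (0.069) and with limma-voom (0.064). In DBA females it was at 0.87 ± 0.64 (adjusted p = 0.38). Cd36 passed in DBA males (1.25 ± 0.36, adjusted p = 0.012), where it ran from 14.3 over 86.4 to 137 CPM on high isoleucine, and that call was lost in a fit of that class alone (adjusted p = 0.12). B6 females gave 0.45 ± 0.35, B6 males 0.66 ± 0.35 and DBA females 0.53 ± 0.35, none past the threshold. Without the 2 libraries of title number 14 the B6 male value was 1.07 (adjusted p = 0.017).

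Fabp4 had negative values in 3 of the 4 classes and passed in DBA females. In DBA females it ran from 3.99 over 6.16 to 7.06 CPM on high isoleucine, which did not overlap the low isoleucine range of 7.69 to 11.4 CPM, and fell by 0.75 ± 0.24 (adjusted p = 0.027). Groups that did not overlap were found for 6.15% of all genes in that class, in which 14.9% of all genes passed the test. The call was lost without a filter (adjusted p = 0.054). In B6 females (-0.55 ± 0.24, adjusted p = 0.097) and DBA males (-0.51 ± 0.24, adjusted p = 0.14) all 6 high isoleucine libraries lay under the low isoleucine mean. In B6 males it was at 0.46 ± 0.24 (adjusted p = 0.15). The sex term of 0.63 ± 0.24 and the strain term of -0.59 ± 0.24 did not pass (adjusted p = 0.094 and 0.13).

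DBA livers were compared with B6 livers as the mean of both sexes, on each diet. Reads of both strains were aligned to a reference built from B6, and the part of read mapping in strain differences was not tested. On control, Cd36 (log2 fold change -0.74 ± 0.25, adjusted p = 0.012) and Mogat1 (-0.89 ± 0.37, adjusted p = 0.040) were lower in DBA as this mean, so 2 of 4 genes passed where 45.4% of all genes did. The group means were clearly lower in DBA in females only. Mean Cd36 was 75.85 CPM in DBA and 214 in B6 females, but 99.78 in DBA and 98.97 in B6 males. Mean Mogat1 was 0.3395 CPM in DBA and 2.589 in B6 females, but higher in DBA males (2.765) than in B6 males (1.323). The strain difference within each sex was not tested. The Mogat1 call was lost without a filter (adjusted p = 0.069). Pparg (-0.08 ± 0.14, 95% interval -0.35 to 0.18) and Fabp4 (-0.03 ± 0.17, -0.37 to 0.30) did not pass. On low isoleucine, where 44.5% of all genes passed, Pparg (-0.82 ± 0.14, adjusted p = 1.4e-06), Mogat1 (-1.95 ± 0.40, adjusted p = 5.3e-05) and Cd36 (-1.79 ± 0.26, adjusted p = 2.9e-08) were lower in DBA and Fabp4 was at 0.20 ± 0.17 (adjusted p = 0.36). On high isoleucine, where 50.4% passed, all 4 were lower in DBA, with Pparg at -0.71 ± 0.13, Mogat1 at -2.35 ± 0.35, Cd36 at -1.46 ± 0.25 and Fabp4 at -0.39 ± 0.17. The Fabp4 value was at the threshold (adjusted p = 0.0498) and was lost without a filter (0.086).

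Mogat1 values by sex had opposite signs in the 2 strains on control. The log2 ratio of males to females was 3.02 ± 0.55 in DBA (adjusted p = 2.3e-05, 25.7% of all genes passed), where females ran from 0.197 to 0.567 CPM and males from 0.555 to 5.30 CPM. Without the 2 DBA male control libraries of title number 10 it was 2.23 (adjusted p = 0.005). In B6 it was -0.99 ± 0.48 (adjusted p = 0.15), with 1.24 to 4.08 CPM in females and 0.848 to 2.57 CPM in males. The difference between these 2 values was not tested. As the mean of both strains it was 1.01 ± 0.37 (adjusted p = 0.032, 26.2% of all genes passed), a call that several alternatives did not keep. Cd36 was lower in B6 males than in B6 females on control (-1.11 ± 0.35, adjusted p = 0.022, 17.4% of all genes passed), with 68.9 to 147 CPM against 164 to 307 CPM. With the title number as a random effect its adjusted p was 0.068. On low isoleucine Cd36 in B6 was at -1.05 ± 0.35 (adjusted p = 0.038, 12.8% of all genes passed), a call lost without a filter (0.084) and with limma-voom (0.051). In DBA the Cd36 values were 0.40 ± 0.35 on control and -0.39 ± 0.35 on low isoleucine, neither past the threshold.

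For Pparg the sexes did not differ past the threshold on control (0.12 ± 0.14, adjusted p = 0.56, 95% interval -0.15 to 0.38). On low isoleucine males were lower (-0.52 ± 0.14, adjusted p = 0.0024), where 33.3% of all genes passed, and on high isoleucine higher by 0.42 ± 0.13 (adjusted p = 0.015), where 28.9% passed. On low isoleucine the value was -0.42 in B6 and -0.62 in DBA (adjusted p = 0.14 and 0.0165), where 12.8% and 24.5% of all genes passed. In limma-voom with the title number as a random effect the DBA call was lost (adjusted p = 0.084). On high isoleucine the value was 0.48 in B6 and 0.35 in DBA (adjusted p = 0.098 and 0.18), where 8.69% and 26.4% of all genes passed. Fabp4 was higher in males on high isoleucine by 0.47 ± 0.17 (adjusted p = 0.033), a call lost without a filter (0.059), and Mogat1 by 1.14 ± 0.35 (adjusted p = 0.0094), lost with limma-voom (0.12).

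Within groups, Pparg, Mogat1 and Cd36 varied together from library to library, and the values of Fabp4 with each of them were near 0 over all 72 libraries. Each library was expressed as its deviation from the mean log2 CPM of its group, over 72 libraries, and the p-values come from 100000 permutations within groups, adjusted by the Benjamini-Hochberg method over the 6 pairs of genes. Mogat1 and Cd36 had a Pearson r of 0.672 and a Spearman rho of 0.591, each with an adjusted p of 6e-05. The unadjusted p of each was 1e-05, the smallest these permutations can give. For Pparg and Cd36 r was 0.575 (adjusted p = 6e-05) and rho 0.525 (0.00018), and for Pparg and Mogat1 r was 0.427 (0.0046) and rho 0.342 (0.02). Without the 2 libraries farthest from the median of the first gene r was 0.623, 0.497 and 0.328. Within the single classes of 18 libraries r ran from 0.457 to 0.761 for Mogat1 and Cd36, from 0.487 to 0.738 for Pparg and Cd36 and from 0.334 to 0.591 for Pparg and Mogat1. All 12 of these values were positive. Over the means of the 36 title numbers r was 0.708, 0.619 and 0.595, each with an adjusted p of 0.02. Fabp4 had an r of 0.057 with Pparg, 0.002 with Mogat1 and -0.004 with Cd36 (adjusted p = 0.99 for each). Within the single classes its values ran from -0.428 with Pparg in DBA males to 0.221 with Pparg in B6 females. Values of this size were not particular to these genes. With Cd36, r was 0.673 for Vldlr, 0.611 for the stellate cell marker Lrat and 0.565 for the macrophage marker Lyz2. It was 0.128 for Rxra and -0.721 for Apoa1. The permutations ask whether r differs from 0, and not whether it is higher than for other genes.

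**Figure D4:**
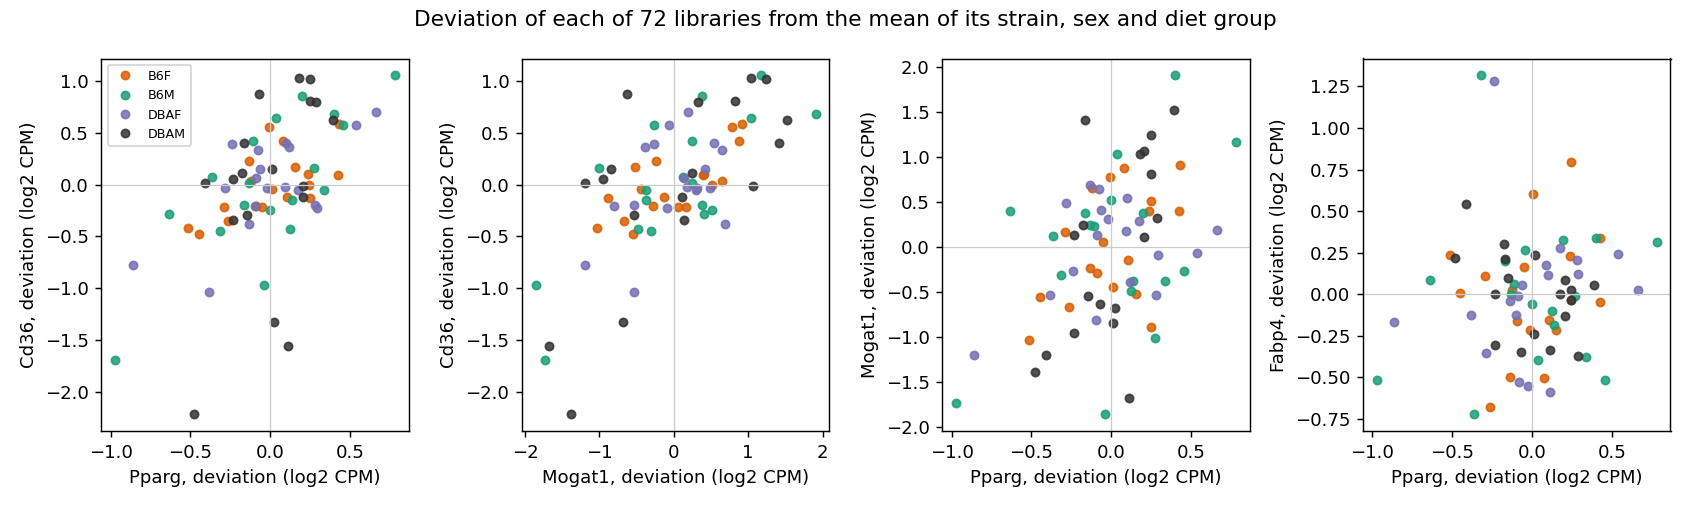
Deviation of each of the 72 libraries from the mean log2 CPM of its group, for 4 pairs of genes; points are coloured by class. The points rise together for Pparg and Cd36 (r = 0.575), Mogat1 and Cd36 (r = 0.672) and Pparg and Mogat1 (r = 0.427), and show no trend for Pparg and Fabp4 (r = 0.057).

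The genes whose deviations were most like those of each of the 4 were listed over the same 72 libraries, as a description without a test. For Pparg they were Tnfrsf19 (r = 0.663), Lgals1 (0.645), Ctse (0.644), Ermp1 (0.634) and Raet1d (0.624). For Mogat1 they were Mas1 (0.713), Acss3 (0.684), Cyp2b9 (0.679), Prnp (0.677) and Aldh1a1 (0.677), and for Cd36 Acss3 (0.792), Entpd5 (0.788), Rtn4 (0.776), Mospd2 (0.757) and Akr1c14 (0.755). Acss3, an acyl-CoA synthetase gene, stood on both lists. For Fabp4 they were Timp3 (0.596), Dpt (0.549), Tpm1 (0.546), Ralb (0.536) and Fbln2 (0.532), among which Timp3, Dpt and Fbln2 encode extracellular matrix proteins. The points share library depth and composition.

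The other receptors of the family did not pass the test. On low isoleucine, as the mean of 4 classes, Ppara, the receptor of fatty acid oxidation in liver, was at -0.02 ± 0.14 and Ppard at 0.16 ± 0.09, neither past the threshold. Rxra, the retinoid partner, fell by 0.16 ± 0.06 (adjusted p = 0.022). Of 23 PPARG partners and regulators, 4 rose and 4 fell on low isoleucine, beside 17.8% and 20% of all genes, with a median log2 fold change of 0.06 beside -0.0035 over all genes. On high against low isoleucine 3 rose and 6 fell, beside 22.9% and 20.7% of all genes. Ppargc1a, a coactivator, rose by 0.72 ± 0.15 (adjusted p = 0.00014) and was lower on high than on low isoleucine (-0.93 ± 0.15). Med1 (0.23 ± 0.06), a subunit of the mediator complex, and the corepressor gene Nrip1 (0.25 ± 0.08) also rose. Srebf1, a driver of lipid synthesis, fell by 0.57 ± 0.14 (adjusted p = 0.0012) and Cebpa by 0.20 ± 0.07. In B6 males on high isoleucine Srebf1 rose by 1.17 against control (adjusted p = 0.014), as Pparg and Mogat1 did.

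Of 19 other targets of PPARG in fat storage 16 were tested, and on low isoleucine 4 rose and 3 fell, with a median of 0.12, where 17.8% of all genes rose and 20% fell. The class counts were 4 up and 1 down in B6 females, 0 and 2 in B6 males, 5 and 0 in DBA females and 2 and 4 in DBA males. Of all genes 20.8%, 5%, 11.8% and 17.7% passed in these classes, in either direction. In limma-voom with the title number as a random effect 4 rose and 1 fell as the mean of 4 classes. Angptl4, a secreted inhibitor of lipoprotein lipase (0.62 ± 0.09, adjusted p = 2.2e-08), Lpl, that lipase itself (0.88 ± 0.19), the acyltransferase Agpat2 (0.25 ± 0.06) and the triglyceride lipase Pnpla2 (0.32 ± 0.08) rose. Fitm1 fell by 1.32 ± 0.20 (adjusted p = 4.1e-07), Cidea by 2.16 ± 0.57 and Cfd by 2.34 ± 0.62. Cidea and Cfd, which are also on the list of fat cell markers, both passed in the males of each strain, with -4.37 and -3.29 for Cidea and -5.27 and -3.82 for Cfd in B6 and DBA males. These falls were between low levels. In B6 males mean Cidea was 2.79 CPM on control and 0.121 on low isoleucine, and mean Cfd 2.61 and 0.0513 CPM. In DBA males mean Cidea was 0.887 and 0.0980 CPM, and mean Cfd 1.70 and 0.0939 CPM. Female means on these 2 diets were at most 0.145 CPM for Cidea and 0.847 CPM for Cfd. Cidec (0.10 ± 0.23), Plin4 (0.29 ± 0.17) and Fabp5 (0.11 ± 0.28) did not pass as the mean of 4 classes. In single classes Plin4 rose in B6 females (0.98, adjusted p = 0.037) and DBA females (1.10, adjusted p = 0.031). Its values in B6 males (-0.20) and DBA males (-0.73) did not pass, and its sex term did (-1.50, adjusted p = 0.0048). Fabp5 rose in DBA males (1.69, adjusted p = 0.024), and its strain term passed (2.32, adjusted p = 0.021). Cidec passed in no class. Fitm1, like Pparg, had its widest fall in DBA males (-2.64 ± 0.37, adjusted p = 4.7e-07), from 12.2 to 39.9 CPM on control and 1.93 to 5.81 CPM on low isoleucine. On high against low isoleucine Fitm1 was higher by 1.55 ± 0.20, and 1 of the 16 genes rose and 4 fell, beside 22.9% and 20.7% of all genes. On control 9 of the 16 were lower in DBA than in B6 and 0 higher, with a median of -0.67 beside 0.01 over all genes. Over all 14954 genes tested 3359 were lower in DBA and 3428 higher.

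**Figure D5:**
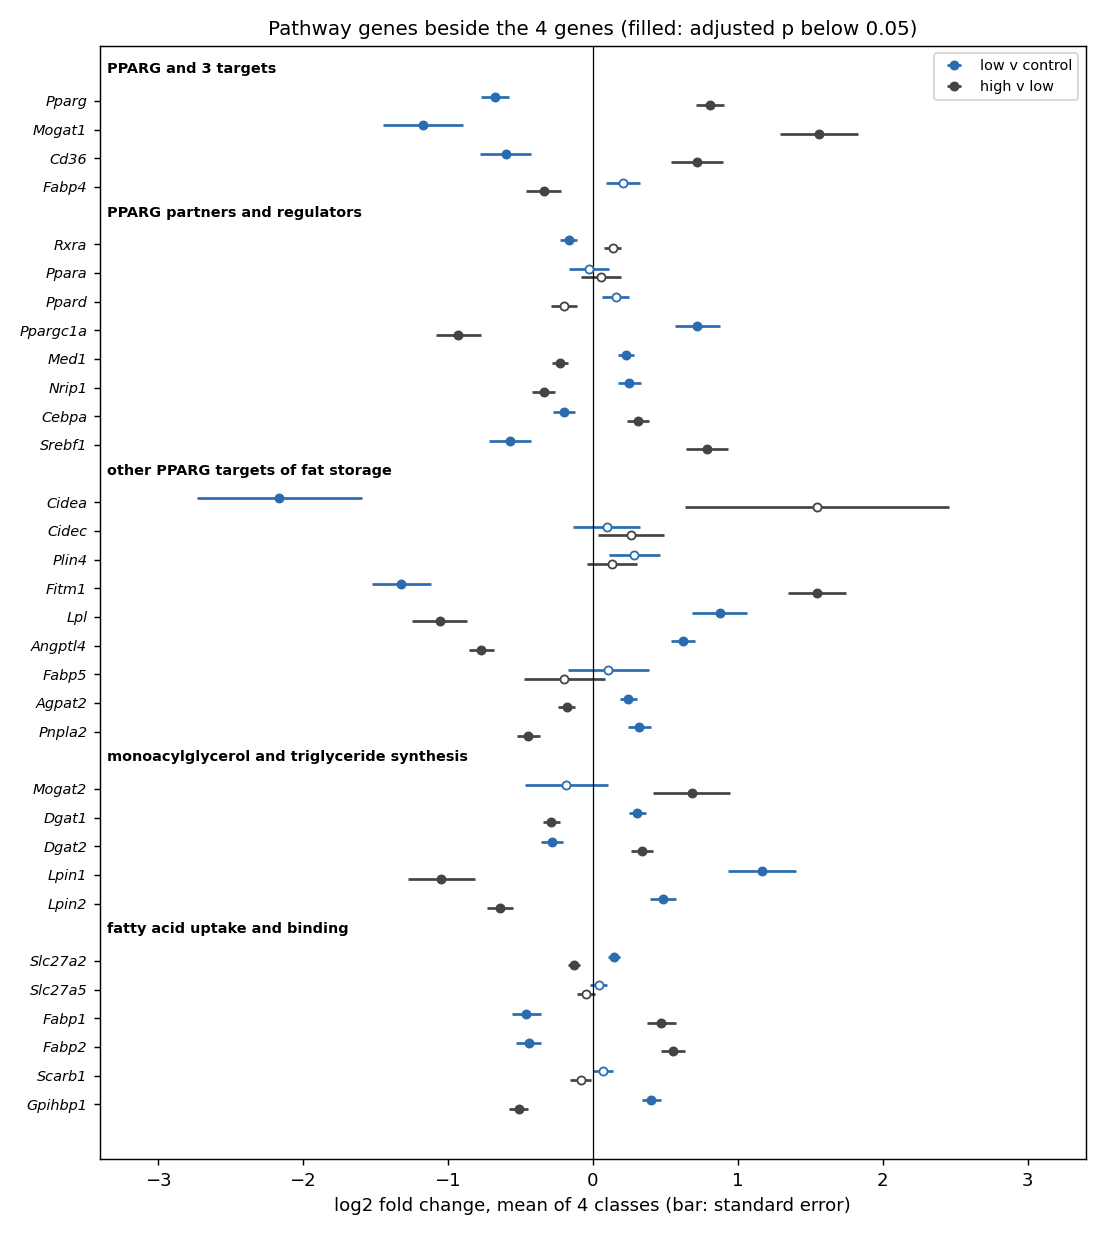
Log2 fold changes with standard errors, as the mean of 4 classes, for low against control (blue) and high against low isoleucine (grey), for the 4 genes and the named genes of 4 pathway lists; filled points passed the threshold of 0.05 on the adjusted p. Fitm1, Srebf1 and Dgat2 lie on the same side as Pparg in both comparisons, and Angptl4, Lpl, Lpin1 and Ppargc1a on the other side.

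Of 14 genes of monoacylglycerol and triglyceride synthesis tested, 8 rose and 1 fell on low isoleucine as the mean of 4 classes, with a median of 0.17, where 17.8% of all genes rose and 20% fell. The class counts were 7 up and 0 down in B6 females, 1 and 0 in B6 males, 2 and 0 in DBA females and 1 and 1 in DBA males, where the median was -0.11. These classes had 20.8%, 5%, 11.8% and 17.7% of all genes past the threshold, in either direction. Lpin1 (1.17 ± 0.23, adjusted p = 5.5e-05) and Lpin2 (0.48 ± 0.09), which make diacylglycerol from phosphatidate, rose, as did Dgat1 (0.31 ± 0.06), which turns diacylglycerol into triglyceride. Lpin1 was at 1.98 in B6 females and 2.04 in B6 males, both past the threshold, and at -0.04 in DBA males, and its strain term passed (-1.68 ± 0.46, adjusted p = 0.0455). Dgat2, a second enzyme of that last step, fell by 0.28 ± 0.07 (adjusted p = 0.0019), and was higher on high than on low isoleucine by 0.34 ± 0.07, as Mogat1 was. Mogat2, the intestinal enzyme of the MOGAT1 step, was near its limit of detection at 0 to 0.943 CPM and at -0.18 ± 0.29 (adjusted p = 0.66). On high against low isoleucine 4 of the 14 rose and 6 fell, beside 22.9% and 20.7% of all genes.

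Of 21 other genes of fatty acid uptake and binding 18 were tested, and on low isoleucine 4 rose and 5 fell, with a median of 0.06, where 17.8% of all genes rose and 20% fell. Fabp1, the liver's own fatty acid carrier at 2005 to 10440 CPM, fell by 0.46 ± 0.10 (adjusted p = 0.00023) and Fabp2 by 0.44 ± 0.09. Fabp1 thus went against Fabp4 in the comparison of high with low isoleucine, where Fabp1 was at 0.47 ± 0.10 and Fabp4 at -0.34 ± 0.12. Gpihbp1, which holds lipoprotein lipase on capillaries, rose by 0.40 ± 0.07. The transporters Slc27a2 (0.15 ± 0.04, past the threshold) and Slc27a5 (0.04 ± 0.06) and the receptor Scarb1 (0.07 ± 0.07) differed little. On high against low isoleucine 5 of the 18 rose and 4 fell, beside 22.9% and 20.7% of all genes.

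Some markers of other cell types changed with diet too, and their part in the values of the 4 genes was not tested. On low isoleucine, as the mean of 4 classes, 17.8% of all genes rose and 20% fell, and the counts below stand beside these shares. Of 16 macrophage markers 12 fell and 0 rose (median -0.51), among them Lyz2 (-0.66 ± 0.15), Cd68 (-0.62 ± 0.14) and Mmp12. In the single classes 11 of the 16 fell in B6 females, 6 in B6 males and 0 in DBA females. Of all genes 20.8%, 5% and 11.8% passed in these classes, in either direction, and 17.7% in DBA males. In DBA males, where Pparg, Mogat1 and Cd36 passed the test, 0 of the 16 fell and 1 rose, and their summed level was at 192 to 282 CPM on low isoleucine and 128 to 259 CPM on control. Of 14 endothelial markers tested 9 rose and 0 fell (median 0.32), among them Flt1 (0.48 ± 0.07), Gpihbp1 and Kdr (0.52 ± 0.09). On high against low isoleucine 14 macrophage markers rose and 1 fell, and 10 endothelial markers fell and 0 rose. In that comparison 22.9% of all genes rose and 20.7% fell as the mean of 4 classes, and 25.9% passed in B6 males and 14.3% in DBA males. In B6 males, where Pparg and Mogat1 passed that comparison, 14 of the 16 macrophage and 5 of the 10 lymphocyte markers rose, and in DBA males, where Pparg, Mogat1 and Cd36 passed it, 0 macrophage markers rose and 1 fell. Of 11 hepatocyte markers tested 5 rose on low isoleucine, among them Cps1 (0.54) and Hnf4a (0.22), and 0 fell. Of 9 stellate cell markers 2 fell, Col1a1 (-0.82 ± 0.17) and Col3a1 (-0.65 ± 0.13), and of 10 lymphocyte markers 1 fell, Cd4 (-0.91 ± 0.18). Of 10 fat cell markers 4 could be tested, and 3 of them fell, Cfd, Cidea and Adrb3 (-0.41 ± 0.15). In limma-voom with the title number as a random effect 6 macrophage markers and 0 fat cell markers fell on low isoleucine.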

How the data were processed

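RNA-seq of 72 mouse liver libraries was analysed from the table that the authors deposited, which holds expected counts per Ensembl gene from reads aligned to GRCm38.p5, per the labels' protocols. Which programs aligned and counted the reads is not given in the sources used here. R 3.4.3, edgeR and limma appear in the submitters' processing notes. Expected counts are estimates (9.56% of nonzero values were not whole) and were rounded. Libraries held 12960000 to 51130000 counts, and the shallowest gives about 12.96 counts per CPM. The deposited tables of the authors' own comparisons were not used here.

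The 12 groups were fitted together with edgeR 4.0.16 in R 4.3.3 (TMM scaling, filter on low counts by group, robust quasi-likelihood test, Benjamini-Hochberg adjustment over 14954 genes, threshold 0.05). CPM used TMM-scaled library sizes, and levels per kilobase used the longest protein-coding transcript. Intervals are 95%, as 1.96 standard errors. Correlations used log2 CPM with a prior count of 2. The members and gene lists were chosen with earlier results of these data known. Named genes were the 4 members, the pathway list genes with the lowest adjusted p (up to 4 in low against control and 4 in high against low) beside a fixed set given whatever its test, up to 3 genes per marker list, and the 5 genes with the highest correlation to each member. 1 gene that this rule names is not reported here. The code was tested on simulated data. Alternatives were no filter, DESeq2 1.42.0, its scaling, limma-voom (limma 3.58.1) with and without the title number as a random effect, fits of single classes, and libraries left out.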

Additional observations from a re-analysis of the deposited data

Results flagged for a closer look

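In 48 sets of 6 libraries (4 genes in 12 groups), 3 libraries lay farther from the others than Dixon's 95% critical value of 0.625 allows, all in Fabp4, and chance alone flags about 1 in 20 sets. Fabp4 was at 17.4 CPM in B6 male control library 1, where the next highest was 7.35 CPM. It was at 18.1 CPM in DBA female control library 6, where the next highest was 7.5 CPM. It was at 5.51 CPM in DBA male high isoleucine library 4, where the next lowest was 7.16 CPM.

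For 3 results on Pparg the effect of diet differed between strains or sexes by the test of the difference itself, in edgeR's quasi-likelihood test with Benjamini-Hochberg adjustment. The effect of low isoleucine differed between DBA and B6 (-0.73, adjusted p = 0.034) and between males and females (-0.64, adjusted p = 0.031). The difference between high and low isoleucine was wider in males (0.94, adjusted p = 0.0012). The first pair of calls was lost under the settings named with those results.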

How the results depend on the processing

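The mean effects of Pparg, Mogat1 and Cd36 on low against control and on high against low isoleucine kept their direction and stayed past the threshold under every alternative run. DESeq2's scaling in edgeR moved log2 fold changes by a median over all genes of at most 0.0114, and DESeq2 itself by at most 0.0116. With limma-voom the mean effect of low isoleucine on Fabp4 was 0.29, past the threshold, and it was 0.32 without B6 male control library 1, 0.31 without DBA female control library 6, and 0.42 without both, each past the threshold, and 0.26 without B6 female control library 4, which was not. Without both, the mean effect of high isoleucine on Fabp4 changed sign to 0.08 (-0.08 without B6 female control library 4), against a main value of -0.13 that had not passed. For Mogat1 the difference of DBA from B6 on control no longer passed without a filter (-0.90), with limma-voom (-0.95) or with the title number as a random effect (-0.93). The difference of males from females in Mogat1 on control no longer passed in the same settings (1.0, 0.79 and 0.78), without B6 female control library 4, in which a trace of a Y-linked gene was seen (0.94), or without the 2 DBA male control libraries of title number 10 (0.62). Each left-out library or pair, apart from B6 female control library 4, was chosen after seeing the data. The cause of these changes was not tested.

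Values near 0 that had not passed changed sign in some settings. For Fabp4 on control, DBA against B6 was 0.01 with limma-voom, 0.02 with the random effect, 0.07 without B6 female control library 4 and from -0.23 without DBA female control library 6 to 0.18 without B6 male control library 1, and males against females ran from -0.34 without the latter to 0.08 without the former. Within B6 that last contrast was 0.02 without B6 female control library 4 and -0.61 without B6 male control library 1, and within DBA it was 0.09 with limma-voom and with the random effect, 0.35 without DBA female control library 6 and 0.34 without both high control libraries. The sex term of Fabp4 on low isoleucine ran from -0.24 without DBA female control library 6 to 0.18 without B6 male control library 1. For Cd36, low against control in B6 males was 0.01 and the sex term for high isoleucine -0.09, each with limma-voom and with the random effect. Without the DBA male control libraries of title number 10, Cd36 on high isoleucine in DBA males was 0.13 and its sex difference in DBA on control -0.01. The strain term of Pparg for high against low isoleucine was 0.00 without the B6 male libraries of title number 14, and r of Cd36 with Fabp4 was 0.202 over the means of title numbers.

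The 3 diets of a class share no title number, while some groups of different classes do, and the labels do not say what a number marks. Libraries of a group with the same title number had a median correlation of their deviations of -0.027 over 36 pairs, of which 6 were over 0.1, and other pairs had -0.248, where deviations from a mean of 6 unrelated libraries would give -0.2. The replicate block was a random effect for the title number within a class in limma-voom, with a correlation of 0.244, so 2 choices differ from edgeR. Counts of genes called are given for edgeR, limma-voom and limma-voom with the block. On low against control they were 3115, 3076 and 1886 in B6 females, 748, 767 and 244 in B6 males, 1760, 1758 and 837 in DBA females, 2644, 2616 and 1674 in DBA males, 208, 226 and 10 for the strain term and 999, 982 and 311 for the sex term. For high against control they were 674, 671 and 136 in B6 males and 69, 42 and 0 for the strain term. For high against low they were 2857, 2823 and 1760, 3869, 3823 and 2511, 2223, 2239 and 1199, and 2137, 2227 and 1262 in the same 4 classes, 836, 733 and 147 for the strain term and 1111, 1131 and 422 for the sex term. For sex on control they were 2605, 2650 and 1546 in B6 and 3849, 3736 and 2558 in DBA, and in B6 1916, 1890 and 1066 on low and 1299, 1203 and 679 on high isoleucine. The random effect lost the calls of Cd36 in DBA males (adjusted p = 0.09) and Fabp4 in DBA females (0.071) for high against low isoleucine, of Fabp4 for strain (0.11) and sex (0.079) on high isoleucine, and of the sex difference of Pparg in DBA on low isoleucine (0.084), which limma-voom kept. For Mogat1 in B6 females (0.12) and DBA males (0.25) for high against low isoleucine and for sex on high isoleucine (0.18), limma-voom alone had not made the call either (0.064, 0.15 and 0.12). Without a filter the counts were 469 and 311 in B6 males for low and high against control, 109 and 34 for their strain terms, 611 for the sex term on low isoleucine and 444 for the strain term of high against low. DESeq2 called 5 genes for high against control as the mean of 4 classes, where edgeR called 0, and 343 and 193 for the strain terms of low and high. In fits of B6 males alone the counts were 335 and 195. The shallow depth of Mogat1 in DBA females, down to 2 counts in a library, limits what could be detected there.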
